A study of Homo sapiens with 12 samples.

Results

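The genes described here are 10 components of epithelial cell contacts: the desmosomal cadherins DSG2 and DSC2, the plaque proteins JUP, DSP, PKP1, PKP2 and PKP3, the classical cadherin CDH1, its partner CTNNB1, and the adhesion molecule EPCAM. They were chosen by gene symbol among the probes of the unnormalized array table, which gave 26 probes of 47322 and 10 genes of the 20046 with a symbol. VCaP, an established human prostate cancer line that depends on the androgen receptor, was kept in complete medium and treated for 24 h, and its RNA was measured on 12 Illumina BeadChip arrays in biological triplicate. The groups were DHT at 0.1 nM, the combination of enzalutamide at 10 µM with dexamethasone at 100 nM, enzalutamide at 10 µM alone, and the DMSO vehicle, with 3 arrays in each. DHT is an androgen, enzalutamide blocks the androgen receptor, and dexamethasone activates the glucocorticoid receptor. All arrays came from 1 cell line, so the values describe VCaP cells and not prostate tissue.

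Desmosomes join neighbouring epithelial cells: desmogleins and desmocollins meet outside the membrane, plakoglobin (JUP) and plakophilins (PKP1, PKP2 and PKP3) bind their tails, and desmoplakin (DSP) links this plaque to keratin filaments. Adherens junctions use E-cadherin (CDH1) and beta-catenin (CTNNB1), which also acts in WNT signalling, and EPCAM is a surface protein of simple epithelia. The luminal cells of the prostate gland are epithelial cells joined by such contacts.

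Among the members 3 of 10 passed the test with DHT against vehicle, where 21.7% of all genes did, and 1 of 10 with enzalutamide against vehicle, where 1.83% did. For DHT the members' share is thus near that of all genes. JUP and DSG2 were lower and DSC2 higher with DHT than with vehicle, while PKP1 was lower with enzalutamide than with vehicle and did not pass the test with DHT. No member passed the test when dexamethasone was added to enzalutamide, where 3.5% of all genes did. Levels are log2 intensities after background correction and quantile normalization, and a change was called at a Benjamini-Hochberg adjusted p under 0.05 over the 11414 genes tested (limma, 1 probe per gene). All 10 members were among the genes tested, with 19 of their 26 probes detected on at least 3 arrays and 14 detected on all 12.

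The 250 bases before the start of the 4 members that were called are shown because DSG2 and JUP fell and DSC2 rose with DHT, while PKP1 fell with enzalutamide. They come from RefSeq on GRCh38.p14, which matched 6 of the 10 members, PKP2, PKP3, CDH1 and EPCAM having no entry. For JUP and DSC2, which have a further start listed, the one at the gene's outer end is given. Capitals mark matches, on either strand, to the E-box CAGGTG bound by SNAI and ZEB factors and to the GC box GGGCGG.
DSG2, chr18:31497927-31498176, plus strand: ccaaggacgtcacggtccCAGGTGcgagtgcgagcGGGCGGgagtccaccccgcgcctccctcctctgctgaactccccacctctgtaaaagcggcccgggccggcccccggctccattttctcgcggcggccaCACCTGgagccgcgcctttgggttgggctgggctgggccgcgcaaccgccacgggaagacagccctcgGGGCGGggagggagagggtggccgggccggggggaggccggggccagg
DSC2, chr18:31102422-31102671, minus strand: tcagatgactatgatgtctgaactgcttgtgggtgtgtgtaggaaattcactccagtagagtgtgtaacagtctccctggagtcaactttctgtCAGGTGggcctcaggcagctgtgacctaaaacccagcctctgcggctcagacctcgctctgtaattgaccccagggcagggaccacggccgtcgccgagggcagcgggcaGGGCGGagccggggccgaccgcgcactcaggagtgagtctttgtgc
JUP, chr17:41786712-41786961, minus strand: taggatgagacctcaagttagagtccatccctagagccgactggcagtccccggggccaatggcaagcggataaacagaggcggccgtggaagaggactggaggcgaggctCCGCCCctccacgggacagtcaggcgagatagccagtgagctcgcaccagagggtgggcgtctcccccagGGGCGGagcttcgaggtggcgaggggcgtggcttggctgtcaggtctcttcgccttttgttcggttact
PKP1, chr1:201283256-201283505, plus strand: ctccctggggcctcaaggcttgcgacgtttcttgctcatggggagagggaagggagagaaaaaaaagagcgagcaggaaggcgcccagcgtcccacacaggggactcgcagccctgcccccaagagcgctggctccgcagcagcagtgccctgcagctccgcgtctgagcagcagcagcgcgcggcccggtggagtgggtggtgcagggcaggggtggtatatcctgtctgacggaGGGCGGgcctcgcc
The DSG2 window held 2 E-box matches and 2 GC box matches, the DSC2 window 1 of each, the JUP window 2 GC boxes and the PKP1 window 1 GC box. These counts depend on the start: at the other listed start JUP had 2 E-boxes and 0 GC boxes, and DSC2 0 E-boxes and 2 GC boxes. Of the members that were not called, DSP had 2 E-boxes and 7 GC boxes, and CTNNB1 had 0 and 3. Among all 35116 windows of this length, 17.5% held the E-box letters and 42.6% the GC box. Of the E-box factors, SNAI1, ZEB1 and ZEB2 were detected on 0 arrays and SNAI2 on at most 2. The androgen and glucocorticoid receptor hexamer AGAACA, present in 12.4% of windows, and the full element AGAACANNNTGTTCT, present in 0.003%, had no match in these 4 windows. Both motifs were searched on both strands. A match or its absence describes the letters of this window only.

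The arrays had mean intensities of 199 to 344, and 15852 to 18352 probes were detected on each. Vehicle replicate 3 was the dimmest. Arrays of 1 group correlated at 0.986 to 0.993 over the kept probes. Arrays were divided into 2 sets by the sign of the first principal component of intensity ranks, over probes detected on no array. This component held 12.5% of the variance, and vehicle replicate 3 lay furthest out on it. The sets, called technical sets here, are not named in the sample labels. Each set held 1 or 2 arrays of every group. The receptor targets FKBP5, TMPRSS2 and KLK3 were higher by 2.39, 1.49 and 1.01 log2 units with DHT than with vehicle. With enzalutamide against vehicle they changed by -0.955, -0.494 and -0.585. Between the combination and enzalutamide they differed by 1.36, 0.23 (limma, adjusted p = 0.178) and 0.67. KLK3 was detected on 0 of the 3 enzalutamide arrays. It was thus at least 1.22-fold higher with vehicle and at least 1.30-fold higher with the combination than with enzalutamide. All 5 luminal prostate markers with a probe were detected, among them KRT8, KRT18 and HOXB13. Of the basal markers 1 of 5 was detected, NGFR on 3 arrays, and KRT5, KRT14 and KRT15 on at most 1 array. Stromal markers were detected for 1 of 6 genes (ACTA2), endothelial for 2 of 4 and immune for 2 of 4. Summed normalized intensities of luminal markers were 5462 to 5881 with DHT and 2770 to 3154 with vehicle. The brightest luminal marker was the receptor target TMPRSS2, at 11.9 with DHT and 10.41 with vehicle. KLK3 and KRT18 were also called up, while KRT8 (0.235) and HOXB13 (-0.021) were not called. In the same order the sums were 112 to 120 and 116 to 140 for basal and 269 to 287 and 203 to 239 for stromal markers. They were 104 to 117 and 91 to 104 for endothelial and 344 to 363 and 401 to 452 for immune markers. The part of these markers in the changes of the members was not tested.

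DSG2, a desmosomal cadherin found in simple epithelia as well as in stratified ones, was the member with the largest DHT change. Its levels were 10.22, 9.91 and 10.07 with DHT, 10.62, 10.54 and 10.53 with the combination, 10.90, 10.91 and 10.85 with enzalutamide, and 10.69, 10.52 and 10.55 with vehicle. The 3 DHT arrays lay below every other array, and the 3 enzalutamide arrays lay above every other. DHT and vehicle did not overlap, in either direction, for 37.2% of all genes. Against vehicle DSG2 fell by 0.52 log2 units with DHT (SE 0.09, 1.43-fold lower, adjusted p = 0.00196), as 1 of the 3 members called. The enzalutamide change, 0.30 against vehicle, had an adjusted p of 0.151, and its groups did not overlap, as for 20.1% of all genes. The dexamethasone change, -0.33 for the combination against enzalutamide, had an adjusted p of 0.0978 and groups that did not overlap, as for 23.5% of all genes. That last change was called under 3 of its 20 alternatives, with adjusted p down to 0.00827 when no background correction was made. The second DSG2 probe gave changes of the same sign in these 3 comparisons, -0.29, 0.33 and -0.22.

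DSC2, the desmocollin that pairs with DSG2 in simple epithelia, moved the other way. Its levels were 10.23, 10.13 and 10.27 with DHT, 9.61, 9.69 and 9.65 with the combination, 9.77, 9.87 and 9.97 with enzalutamide, and 9.95, 9.90 and 9.95 with vehicle. The DHT arrays were the highest and the combination arrays the lowest, with no overlap between either and any other group. Among all genes 37.2% had no overlap of DHT and vehicle, and 23.5% none of the combination and enzalutamide. DSC2 rose by 0.28 log2 units with DHT against vehicle (SE 0.08, 1.21-fold, adjusted p = 0.0302). Fitted on the DHT and vehicle arrays alone, the same change had an SE of 0.09 and an adjusted p of 0.0888. That fit called 2 members, where 1663 of all 11414 genes were called. The second probe rose by 0.53 (SE 0.13, adjusted p over probes = 0.0153). Leaving out 1 array kept the call on the first probe in 1 of 6 cases, that without DHT replicate 2, and lost it without DHT replicate 1 or 3 or any vehicle array, with adjusted p between 0.0389 and 0.1. The combination differed by -0.22 from enzalutamide (adjusted p = 0.209) and by -0.28 from vehicle (adjusted p = 0.156).

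The dexamethasone change of DSC2 differed from its DHT change by -0.50 log2 units (SE 0.12, adjusted p = 0.0232). DSC2 was the 1 member called for this difference, against 6.9% of all genes. These changes use separate arrays, the combination and enzalutamide for the one and DHT and vehicle for the other. They therefore also differ in the presence of enzalutamide. The call held in 6 of the 12 fits that left out 1 array, with adjusted p between 0.0284 and 0.0611. It was lost without DHT replicate 1 or 3, combination replicate 1, enzalutamide replicate 2 or 3, or vehicle replicate 2. The second DSC2 probe gave a difference of -0.67 that was not called (SE 0.18, limma, adjusted p over probes = 0.0655).

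JUP, which encodes plakoglobin and is shared by desmosomes and adherens junctions, fell with DHT as DSG2 did. Its levels were 9.15, 9.12 and 9.23 with DHT, 9.53, 9.63 and 9.43 with the combination, 9.72, 9.64 and 9.71 with enzalutamide, and 9.79, 9.56 and 9.53 with vehicle. All 3 DHT arrays lay below all 9 others, among which the groups were close or overlapped. For 37.2% of all genes DHT and vehicle did not overlap, in either direction. The DHT change against vehicle was -0.46 (SE 0.09, 1.37-fold lower, adjusted p = 0.004), and the changes with enzalutamide and with added dexamethasone were 0.06 and -0.16 (adjusted p = 0.81 and 0.487). With the mean of all 3 kept JUP probes in place of the brightest, the DHT change was -0.28 (adjusted p = 0.174). The other 2 probes were detected on 8 and 3 arrays and changed by -0.08 and -0.31. The calls of JUP and DSG2 with DHT each held in 6 of 6 fits that left out 1 array, the dim vehicle replicate 3 included.

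**Figure D1:**
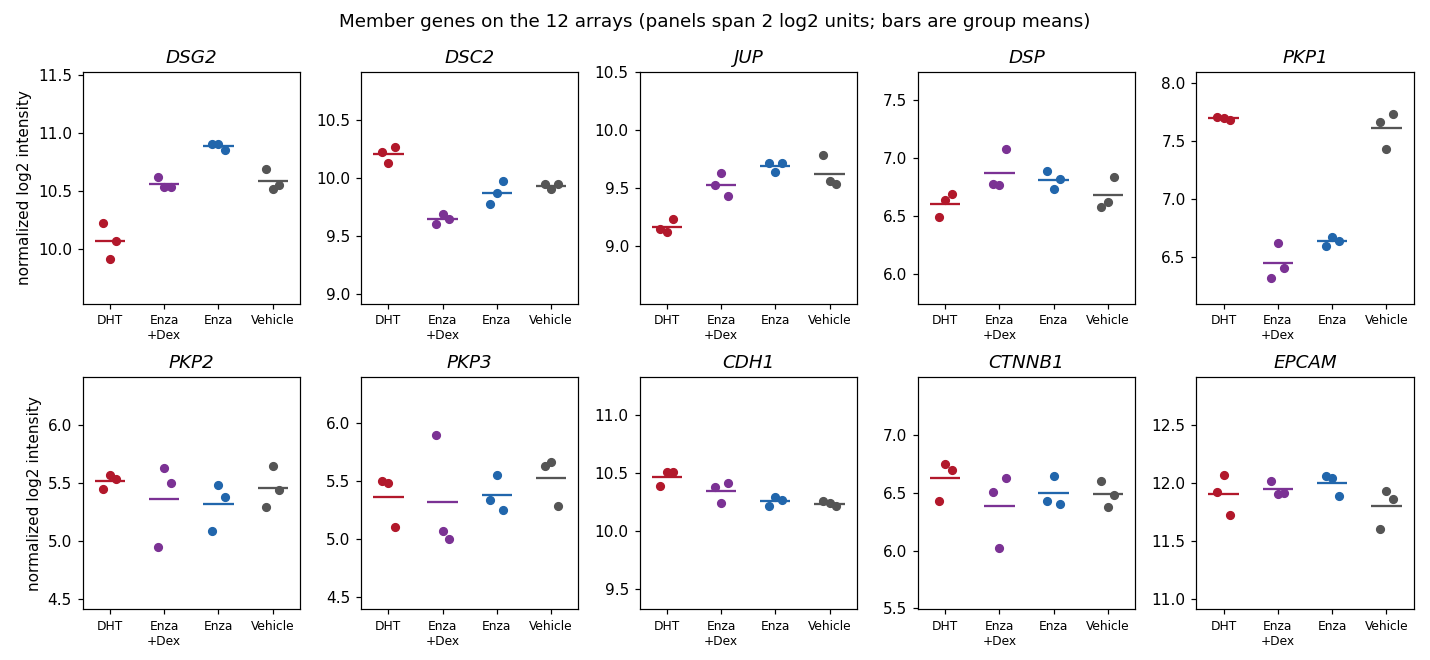
Normalized log2 intensity of the 10 members on the 12 arrays, 1 point per array with the group mean as a bar, for DHT, enzalutamide with dexamethasone (Enza+Dex), enzalutamide (Enza) and vehicle; each panel spans 2 log2 units. DSG2 and JUP are lowest with DHT, DSC2 is highest with DHT, and PKP1 is lower with both enzalutamide treatments than with DHT or vehicle.

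PKP1, a plakophilin best known from the suprabasal layers of stratified epithelia, showed the largest change of any member. Its levels were 7.71, 7.70 and 7.69 with DHT, 6.32, 6.62 and 6.41 with the combination, 6.59, 6.68 and 6.64 with enzalutamide, and 7.67, 7.44 and 7.73 with vehicle. The 6 arrays with enzalutamide, alone or combined, lay below the 6 without it, while DHT and vehicle overlapped. Enzalutamide and vehicle did not overlap, in either direction, for 20.1% of all genes. PKP1 fell by 0.98 log2 units with enzalutamide against vehicle (SE 0.10, 1.97-fold lower, adjusted p = 6e-04). It was the 1 member called there, against 1.83% of all genes, and 0.14% of genes had a change of larger size. With the combination it fell by 1.16 against vehicle (adjusted p = 0.000298), where again 1 member was called, against 1.1% of all genes. The DHT change, 0.08 against vehicle, had a 95% confidence interval of -0.14 to 0.31. Adding dexamethasone to enzalutamide gave -0.19 (interval -0.41 to 0.03, adjusted p = 0.443). Without background correction the PKP1 changes were smaller and still called, -0.59 for enzalutamide and -0.69 for the combination, each against vehicle, and 0.65 for DHT against enzalutamide. A second PKP1 probe was detected on 2 arrays and was not tested.

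PKP2 and PKP3, the plakophilins of simple epithelia and of most epithelia, and DSP were not called in any comparison. PKP2 averaged 5.52 ± 0.07 with DHT, 5.36 ± 0.36 with the combination, 5.32 ± 0.21 with enzalutamide and 5.46 ± 0.18 with vehicle (SD, n = 3 each). PKP3 averaged 5.36 ± 0.22, 5.32 ± 0.50, 5.38 ± 0.15 and 5.53 ± 0.21 in the same groups. Both were dim, and intervals of their changes reached 0.43 and 0.63 log2 units in size for DHT against vehicle. DSP averaged 6.60 ± 0.10, 6.87 ± 0.18, 6.81 ± 0.08 and 6.68 ± 0.14.

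CDH1, which encodes E-cadherin, lay at the edge of the threshold. Its levels were 10.39, 10.51 and 10.51 with DHT, 10.38, 10.24 and 10.41 with the combination, 10.21, 10.29 and 10.27 with enzalutamide, and 10.26, 10.24 and 10.21 with vehicle. Every DHT array was above every vehicle array, as was the case in either direction for 37.2% of all genes. The difference was 0.23 log2 units (SE 0.08, 95% interval 0.06 to 0.41) with an adjusted p of 0.0586. The same values gave an adjusted p of 0.0409, and so a call, when limma estimated its variance prior over 1 probe per gene in place of all kept probes. The fit with the prior over all kept probes was chosen for every result given here after both outputs had been seen, so whether CDH1 counts as changed rests on that choice. Over its 20 alternatives CDH1 was called in 7, and its change ran between 0.20 and 0.45.

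CTNNB1 and EPCAM were not called on their brightest probes. CTNNB1 averaged 6.62 ± 0.17 with DHT, 6.38 ± 0.32 with the combination, 6.49 ± 0.13 with enzalutamide and 6.49 ± 0.11 with vehicle (SD, n = 3 each). A dim CTNNB1 probe was detected on all 3 DHT arrays and on 0 arrays of every other group. It averaged 5.1 with DHT and 4.72 with vehicle, at least 1.06-fold higher with DHT (limma, adjusted p over probes = 0.0237). It thus passed the filter only through the group where it was high, and its call is no support for a change. The third kept CTNNB1 probe changed by -0.02. EPCAM, the brightest probe among the members, averaged 11.91 ± 0.17, 11.95 ± 0.07, 12 ± 0.10 and 11.80 ± 0.17, and its 3 probes changed by 0.11, -0.01 and -0.08 with DHT. Over the comparisons of DHT and of enzalutamide with vehicle and of the combination with enzalutamide, 6 probe calls were made among the members, where 17.4%, 1.22% and 2.37% of all kept probes were called. These 6 include that of the dim CTNNB1 probe.

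**Figure D2:**
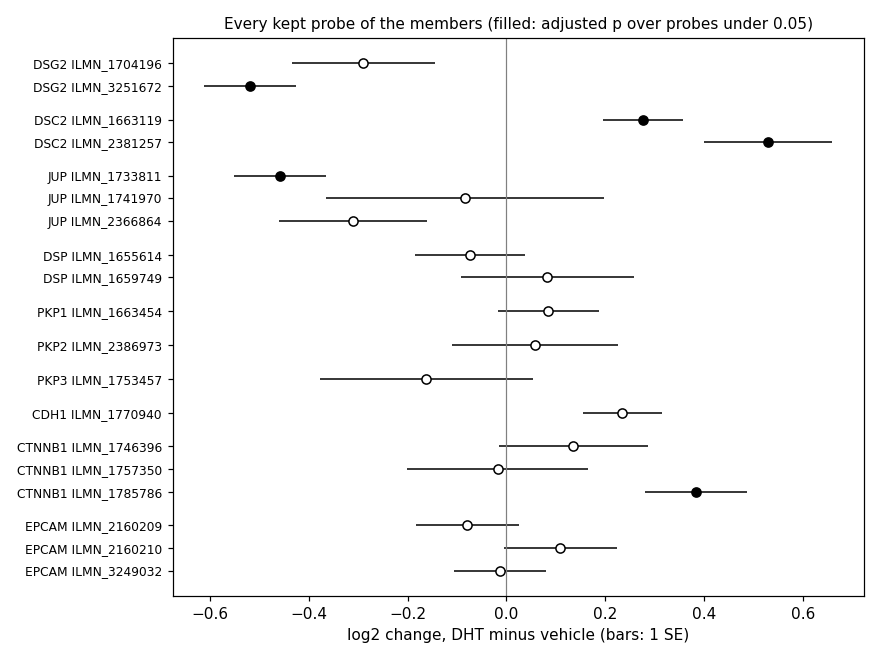
Log2 change with DHT against vehicle for each of the 19 kept probes of the members, with bars of 1 SE and filled points for an adjusted p over probes under 0.05. Both DSC2 probes are above 0 and filled, both DSG2 probes and all 3 JUP probes are below 0, and of the CTNNB1 probes the dim one is filled. That dim probe passed the filter only through the DHT arrays.

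DHT against enzalutamide, agonist against antagonist, called 4 of the 10 members, where 29.2% of all genes were called. PKP1 was higher by 1.06 (adjusted p = 1.2e-05) and DSC2 by 0.34 (adjusted p = 0.00828), while DSG2 changed by -0.82 (adjusted p = 4.63e-05) and JUP by -0.52 (adjusted p = 0.00124). With the mean of all kept probes the JUP change was -0.20 (adjusted p = 0.331), 1 of its 3 probes having the opposite sign (0.07). In that setting 5 members were called, 4 up and 1 down, where 3484 of all 11414 genes were. CTNNB1 was among those called up. Its mean includes the dim probe that passed the filter only through the DHT arrays, so this call is no support for a change. Adding dexamethasone to enzalutamide called 0 of 10 members by limma, where 3.5% of all genes were called, and 2 members, DSG2 and DSC2, had an unadjusted p under 0.05. The median size of the members' changes was 0.15 log2 units for DHT against vehicle, where that of all genes was 0.18, and 0.10 for the combination against enzalutamide, where that of all genes was 0.12. Comparisons that name the same group share its 3 arrays.

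**Figure D3:**
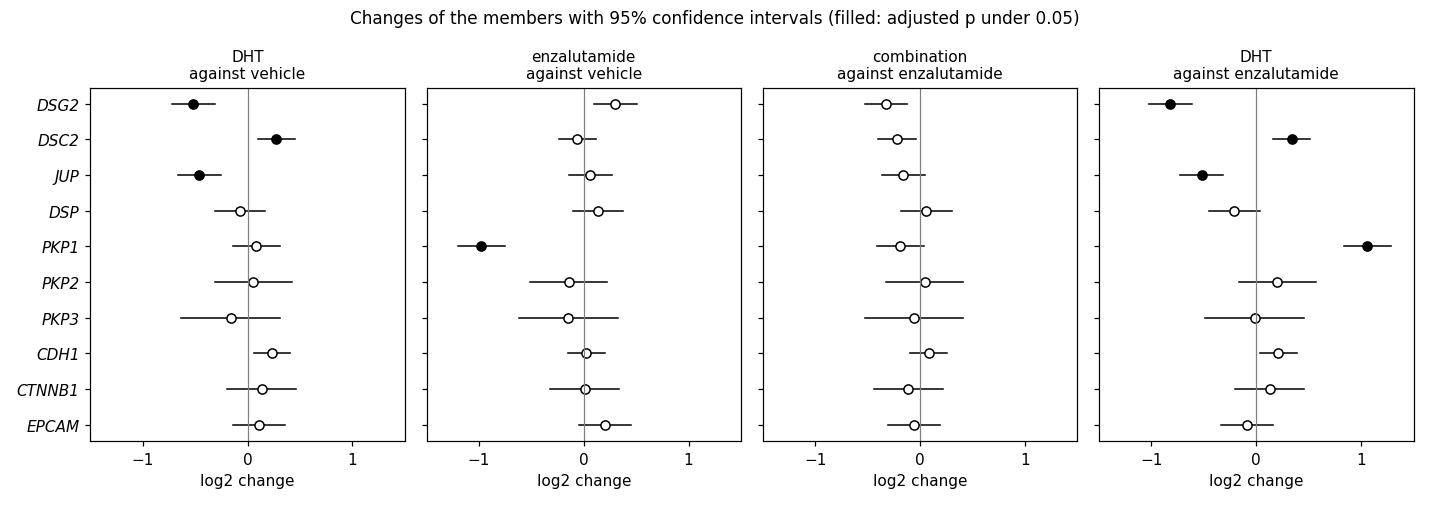
Log2 change of each member, first group minus second, in 4 comparisons, with 95% confidence intervals and filled points for an adjusted p under 0.05. Filled points are DSG2, DSC2 and JUP for DHT against vehicle, PKP1 for enzalutamide against vehicle, none for the combination against enzalutamide, and DSG2, DSC2, JUP and PKP1 for DHT against enzalutamide.

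In the order of their levels, neighbouring groups differed at 1 step in each of the called genes. PKP1 ran, high to low, DHT, vehicle, enzalutamide and combination, with a called step between vehicle and enzalutamide. DSG2 and JUP ran enzalutamide, vehicle, combination and DHT, with a called step between the combination and DHT (adjusted p = 0.00264 for DSG2 and 0.0154 for JUP, where 20.6% of all genes were called). DSC2 ran DHT, vehicle, enzalutamide and combination, with a called step between DHT and vehicle. The other neighbours did not pass the test, and in the other 6 members no neighbouring step did.

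Across the 12 arrays, which share their treatments, JUP and DSG2 correlated at 0.91 and PKP1 and DSC2 at 0.82, while JUP and CDH1 correlated at -0.83. After group means were removed these were 0.40, 0.42 and -0.28. The genes most like each member over the 12 arrays were ENDOD1 for PKP1 (Pearson r = 0.971), ZDHHC8 for JUP (0.974), COL5A2 for DSG2 (0.986) and BBS4 for DSC2 (0.969). The next 2 were IQGAP2 and TRPM8 for PKP1, CDC16 and VEGFB for JUP, CCDC28A and DEDD2 for DSG2, and MTARC1 and CAP2 for DSC2.

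DSC2 and DSG2 lie in the desmosomal cadherin cluster of chromosome 18, where RefSeq lists 7 protein-coding genes in the order DSC3, DSC2, DSC1, DSG1, DSG4, DSG3 and DSG2. DSC3 was detected on 12 arrays and changed by 0.10 with DHT against vehicle (SE 0.13, adjusted p = 0.64). DSC1 was detected on 1 array, and DSG1, DSG4 and DSG3, desmosomal cadherins of stratified epithelia, on 0.

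Of 136 further junction and adhesion genes, 86 were tested, and 26 of them (30.2%) were called with DHT against vehicle, 21 up and 5 down, where 21.7% of all genes were called. The lists were chosen with earlier results of these data known, so these shares are a description only. Tight junction genes, which seal the space between cells, gave 7 up and 0 down of 13, with a median change of 0.40 where that of all genes was 0.01. The 4 tight junction genes with the smallest adjusted p were the claudin CLDN8 (1.21), MARVELD3 (0.86), CRB3 (0.65) and CLDN23 (0.50). Adherens junction genes gave 2 up of 10, NECTIN2 (0.55) and VCL (0.23). Hemidesmosome and integrin genes gave 3 up of 9, ITGB5 (0.53), CD151 (0.38) and ITGA3 (0.37), and keratins 2 up of 4, KRT19 (1.07) and KRT18 (0.47, with its 2 probes of opposite sign). Of the other desmosome genes 1 of 5 fell, the plaque gene EVPL (-0.39). EPCAM partners and proteases gave 3 up and 1 down of 10, with the tetraspanin TSPAN8 at -1.44 and CD9, CD44 and CLDN7 up by 0.66, 0.67 and 0.31, where CD9 and CD44 had probes of opposite sign.

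With DHT against vehicle, the lists around beta-catenin had few calls, not clearly apart from the 21.7% of all genes called. In the WNT list 1 rose and 2 fell of 11, CCND1 at 0.39 and LEF1 and MYC at -0.45 and -1.46, and GSK3B, a kinase of the destruction complex, was the 1 called of 10 there (0.52). Epithelial regulators gave KLF4 up (0.81) and 1 gene down of 11, and mesenchymal genes ACTA2 up (0.65) of 3. With enzalutamide against vehicle 3 of the 86 genes were called (3.49%, where 1.83% of all genes were): NECTIN3 (0.50), TSPAN8 (0.73) and ELF3 (0.39) rose. With the combination against enzalutamide 3 were called, 3.49% where 3.5% of all genes were, NECTIN3 at -0.46, CCND1 at 0.41 and ACTA2 at 0.61.

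**Figure D4:**
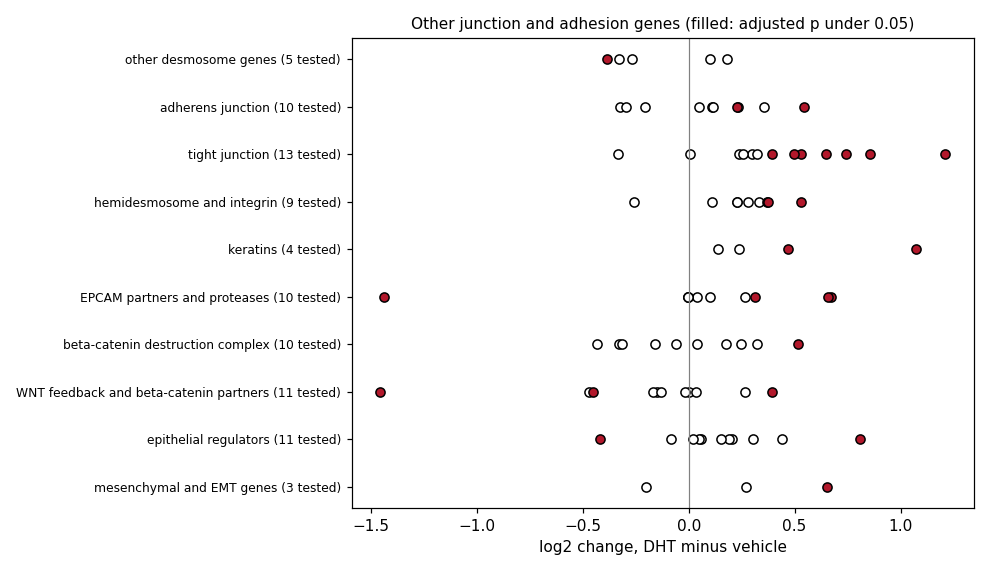
Log2 change with DHT against vehicle for the 86 tested junction and adhesion genes outside the 10 members, 1 row per list, with filled points for an adjusted p under 0.05. The 7 filled tight junction genes lie above 0, and TSPAN8 and MYC lie below -1.4.

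Array scaling bears on the DHT result. When arrays were instead aligned on their medians, the median change over all genes shifted by 0.15 for DHT against vehicle, by 0.13 for enzalutamide against vehicle and by 0.20 for the combination against vehicle. DSG2, JUP and DSC2 then changed by -0.28, -0.24 and 0.52 with DHT, or by -0.44, -0.39 and 0.36 relative to the median of all genes, and none was called, with an SE of 0.21 for each. Of all 11414 genes, 1169 were called for DHT against vehicle in that setting, against 2476 as reported. PKP1 was still called with enzalutamide, at -0.79 (adjusted p = 0.0421). Within the 2 technical sets, with 1 or 2 arrays per group, DSG2 changed by -0.54 and -0.48 with DHT, JUP by -0.54 and -0.30, and DSC2 by 0.25 and 0.32. PKP1 changed by -0.96 and -1.08 with enzalutamide there, and none of these was called within a set.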

How the data were processed

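Per the file headers, the authors deposited an unnormalized table with an average bead intensity, a detection p-value and a bead count for each probe on each of the 12 arrays, and a second table of processed intensity values. GenomeStudio is named in the submitters' processing notes, with its version not stated. Only the columns of these 12 arrays were read. Gene symbols came from the platform annotation: 30112 probes had 1 symbol, 8 several and 17202 none.

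Intensities were normalized with limma 3.58.1 in R 4.3.3 (neqc by detection p-values, offset 16). Probes with a detection p under 0.05 on at least 3 arrays were kept, 20265 in all. The 4 groups were fitted together, with the variance prior estimated over all kept probes. Each gene was read from its brightest kept probe, and p-values were adjusted over 11414 genes. A first fit estimated the prior over these genes alone. The fit over all kept probes replaced it after both outputs had been seen, because it follows an earlier treatment of these data; the first is given as an added alternative, and it also calls CDH1 for DHT against vehicle. The fit was tested on simulated data.

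The members and gene lists were chosen with earlier results of these data known. Named genes are all members, up to 4 genes per list and comparison with the smallest adjusted p among called genes whose groups do not overlap, 3 genes most correlated with each called member, and 3 receptor targets. Same-numbered DHT and vehicle arrays deviated together weakly (correlations 0.12, 0.14 and 0.21). Replicate 2 gave -0.01 for enzalutamide and vehicle and -0.1 for the combination and vehicle. The fit reported here left the samples unpaired, and the replicate number as a block was an alternative. That block changed no call of a member for DHT against vehicle. The number of arrays, 3 per group, limits the precision.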

Additional observations from a re-analysis of the deposited data

Results flagged for a closer look

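The DSC2 change with dexamethasone added to enzalutamide differed from its change with DHT. The test of the difference itself, the dexamethasone change minus the DHT change, gave -0.50 log2 units (limma, adjusted p = 0.0232). The dexamethasone change, measured on top of enzalutamide, was -0.22 and not called (limma, adjusted p = 0.209). The DHT change, measured without enzalutamide, was 0.28. The difference therefore also sets cells with enzalutamide against cells without it. The call was lost in 6 of 12 fits that left out 1 array and under median scaling (-0.64, adjusted p = 0.486). On the second DSC2 probe the difference was -0.67 and not called (limma, adjusted p over probes = 0.0655).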

How the results depend on the processing

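Over 1244 refits of single members, 1191 kept the direction or stayed uncalled, 36 lost a call, 17 gained one and 0 turned a called change round. With median scaling, 0 members were called for DHT against vehicle, where 1169 of all 11414 genes were (2476 as reported). For DHT against enzalutamide 2 members were called, where 1450 genes were (3337 as reported). For the dexamethasone change against the DHT change 0 members were called, where 175 genes were (788 as reported). In this setting 1 member probe was called (6 as reported), and 17 list genes were called (26 as reported). Within either technical set alone, which holds fewer arrays, 0 members were called for DHT, enzalutamide or the combination against vehicle and 0 for the difference of changes, 2 were called for DHT against enzalutamide, and 10 and 3 list genes were called. In these sets 0 of all 11414 genes were called for enzalutamide or the combination against vehicle, 1 and 15 for the difference and 767 and 228 for DHT against vehicle, so most of these counts say nothing about the members. Without background correction 2 members were called for enzalutamide against vehicle, where 410 of all 11414 genes were (209 as reported). For the combination against enzalutamide that setting called 1 member and 614 genes (400 as reported). For the combination against vehicle it called 2 members and 253 genes (125 as reported). The stricter filter on dim probes and normexp with offset 50 each called 1 member for the combination against enzalutamide. There they called 527 of 8976 and 477 of 11414 genes. Leaving out 1 array gave 0 to 1 members for the difference of changes. The causes of these shifts were not tested. With the variance prior over the genes alone, an alternative added after the data were seen, 4 members were called for DHT against vehicle (3 as reported, CDH1 being added at an adjusted p of 0.0409) and 29 list genes. That fit called 2683 of all 11414 genes for DHT against vehicle (2476 as reported). The list counts within technical sets and without single arrays were also added after the data were seen. With the replicate block, 3 members were called for DHT against vehicle, and no member's call changed in any comparison. PKP3 has no probe under the stricter filter. Dim probes near background, such as those of PKP2 and PKP3, limit what can be detected.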
